A study of Mus musculus with 12 samples.

Results

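The mammalian circadian clock was followed through 10 genes: Bmal1, Clock, Per1, Per2, Per3, Cry1, Cry2, Nr1d1, Nr1d2 and Dbp. The members were the rows whose gene identifier carries one of these symbols in the annotation, and they were 10 of the 55357 genes listed in each table. RNA was sequenced in 12 libraries of 4 groups with 3 libraries each, and all 10 genes were measured in all 12. The comparisons ask how esculetin changed the liver after a short run of fatty meals, and macrophages that take up oxidized lipoprotein. The liver groups came from wild-type male C57BL/6J mice, 8 to 9 weeks old, kept under 12 h of light and 12 h of darkness, which received esculetin, a coumarin found in plants, at 90 mg/kg/day or the 2.5% Tween-80 vehicle by gavage for 7 days. All of these mice ate a diet with 10% of its calories from fat for 4 days and then a high-fat diet with 60% for 3 days, so no liver group without the high-fat diet was compared. Each liver library was made from the pooled livers of 2 mice. RAW264.7, a single transformed mouse macrophage line, was given fluorescently labelled oxidized low-density lipoprotein (DIL-oxLDL) at 25 µg/mL for 24 h, with esculetin at 40 µg/mL or with DMSO, its solvent, in the controls, so every cell group carried oxLDL. The hour of the day at which livers were taken, and whether the cell replicates were separate cultures, were not given in the sources used here. P-values in the cells therefore measure only the spread between these samples, which may be technical.

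The liver libraries held 14659876 to 20346460 counts each, and the cell libraries 13752842 to 20001959. Summed hepatocyte markers reached 106200 to 135500 CPM (reads scaled to the size of the library) in the livers, while 4 of 6 of them (Apoa1, Ttr, Serpina1a and Fabp1) were at 0 in every cell library. In the cells, the summed level of 7 macrophage markers was 2206 to 2370 CPM without esculetin and 4894 to 7393 CPM with it. Of these markers, 4 of the 6 that could be tested were called, where 57.7% of all 13277 tested genes were. The part of these markers in the clock values of the cells was not tested. Marker sums in the liver overlapped between groups for hepatocytes, macrophages, Kupffer cells, cholangiocytes and lymphocytes, and none of the tested markers of any list was called there. For endothelial and stellate cells the summed level was 190.9 to 204.6 CPM in control and 175.9 to 185 CPM in esculetin livers. Liver control replicate 1 stood apart from the other livers, at -47.9 on the first principal component (39.9% of the variance) against -3.44 to 19.4. In bulk RNA, fewer cells of a type and less RNA per cell cannot be told apart.

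The clock is a transcriptional feedback loop that runs in nearly every cell with a period of about a day. BMAL1 and CLOCK pair up and bind E-box sequences to switch on the Per and Cry genes, whose proteins return to the nucleus and repress BMAL1-CLOCK. A second loop runs through the nuclear receptors REV-ERBα (Nr1d1) and REV-ERBβ (Nr1d2), which are also induced at E-boxes and repress Bmal1 through RORE sequences. DBP, a transcription factor of the PAR bZIP family driven by E-boxes, acts on D-box sequences in output genes. In the liver these genes swing over the day under the control of light, feeding and glucocorticoids, with Bmal1 high when Dbp and Nr1d1 are low. Macrophages also hold a working clock.

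Promoter windows are shown for Bmal1, Per1, Nr1d1 and Dbp because the effect of esculetin on these 4 members differed between the tables. RefSeq windows (table build GRCm38.p6) of 250 bases before and 50 after a start site were matched for 9 of the 10 members, 13 windows in all, with none for Per2. An exact search placed 12 of them on GRCm39, and the window of Nr1d2 was not placed. The letters searched on both strands were CACGTG (E-box), CACGTT (a variant E-box), TAGGTCA or TGGGTCA (the core of a RORE), TTATGTAA or TTACGTAA (D-box) and TGACGTCA (CRE, the site of CREB). Capitals mark a match, and positions count from 1 at the first transcribed base. For Bmal1 and Per1 only the window with a match is shown. Each had another window, at chr7:112806422-112806721 and chr11:68990728-68991027, which held no match.
Bmal1, chr7:112806468-112806767, plus strand, with TAGGTCA from position 31: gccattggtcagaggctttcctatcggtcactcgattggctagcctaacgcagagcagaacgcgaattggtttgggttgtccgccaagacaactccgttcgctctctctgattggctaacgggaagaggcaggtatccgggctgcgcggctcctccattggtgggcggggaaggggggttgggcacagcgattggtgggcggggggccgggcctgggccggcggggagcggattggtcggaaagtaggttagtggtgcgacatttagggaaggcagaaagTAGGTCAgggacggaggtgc
Per1, chr11:68989525-68989824, plus strand, with CACGTG from position -166: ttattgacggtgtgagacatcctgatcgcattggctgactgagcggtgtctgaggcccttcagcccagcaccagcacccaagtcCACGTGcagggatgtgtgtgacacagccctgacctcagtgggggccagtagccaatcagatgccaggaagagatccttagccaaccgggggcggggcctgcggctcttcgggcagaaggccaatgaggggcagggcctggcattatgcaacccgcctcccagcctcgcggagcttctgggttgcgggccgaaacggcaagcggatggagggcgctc
Nr1d1, chr11:98666154-98666453, minus strand, with CACGTT on the opposite strand, shown in reverse from position -28: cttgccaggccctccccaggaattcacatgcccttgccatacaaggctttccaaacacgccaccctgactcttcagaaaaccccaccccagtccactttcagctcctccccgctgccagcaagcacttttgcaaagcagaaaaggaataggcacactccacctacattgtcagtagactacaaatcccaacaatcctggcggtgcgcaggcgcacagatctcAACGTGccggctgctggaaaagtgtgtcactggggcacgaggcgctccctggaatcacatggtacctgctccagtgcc
Dbp, chr7:45354421-45354720, plus strand, with no match: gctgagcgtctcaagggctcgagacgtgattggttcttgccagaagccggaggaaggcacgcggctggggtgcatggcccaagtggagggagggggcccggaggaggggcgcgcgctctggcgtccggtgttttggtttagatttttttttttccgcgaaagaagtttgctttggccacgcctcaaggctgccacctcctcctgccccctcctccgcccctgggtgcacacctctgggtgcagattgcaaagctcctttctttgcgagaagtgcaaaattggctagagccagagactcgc

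Among the other windows, Cry1 held CACGTT at position -79 and CACGTG at -60, Cry2 held CACGTT at -166, and Per3 held the D-box at -205 and at -158. No match overlapped another. Of all 32851 RefSeq windows, 7.15% held CACGTG, 4.68% CACGTT, 6.45% a RORE core, 1.06% a D-box and 1.79% a CRE, which no member window held. A match describes letters only, and a window without one says only that those letters were not in it.

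Levels between genes were compared as CPM per kilobase of exon in the control libraries. In control liver, Cry1, a repressor of BMAL1-CLOCK, had the highest mean level at 5.73 CPM per kilobase, followed by Nr1d1 at 5.26, Cry2 at 2.54 and Bmal1 at 1.995. The order then ran through Per2 at 1.14, Clock at 1.08, Per1 at 0.695, Nr1d2 at 0.612, Dbp at 0.464 and Per3 at 0.150. Neighbours in this order had overlapping ranges except Nr1d1 against Cry2 and Dbp against Per3. Control RAW264.7 cells had another order by the same measure, headed by Per1 at 24.5 CPM per kilobase and Nr1d1 at 21.8, with overlapping ranges. Dbp followed at 8.49, Cry2 at 7.31, Nr1d2 at 6.97, Cry1 at 5.94, Clock at 4.98, Bmal1 at 2.53, Per3 at 1.56 and Per2 at 1.06. Ranges in the cells also overlapped between Cry2 and Nr1d2 and between Cry1 and Clock, and at no other step. The tables were normalised separately, so an order was read only within a table.

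**Figure D1:**
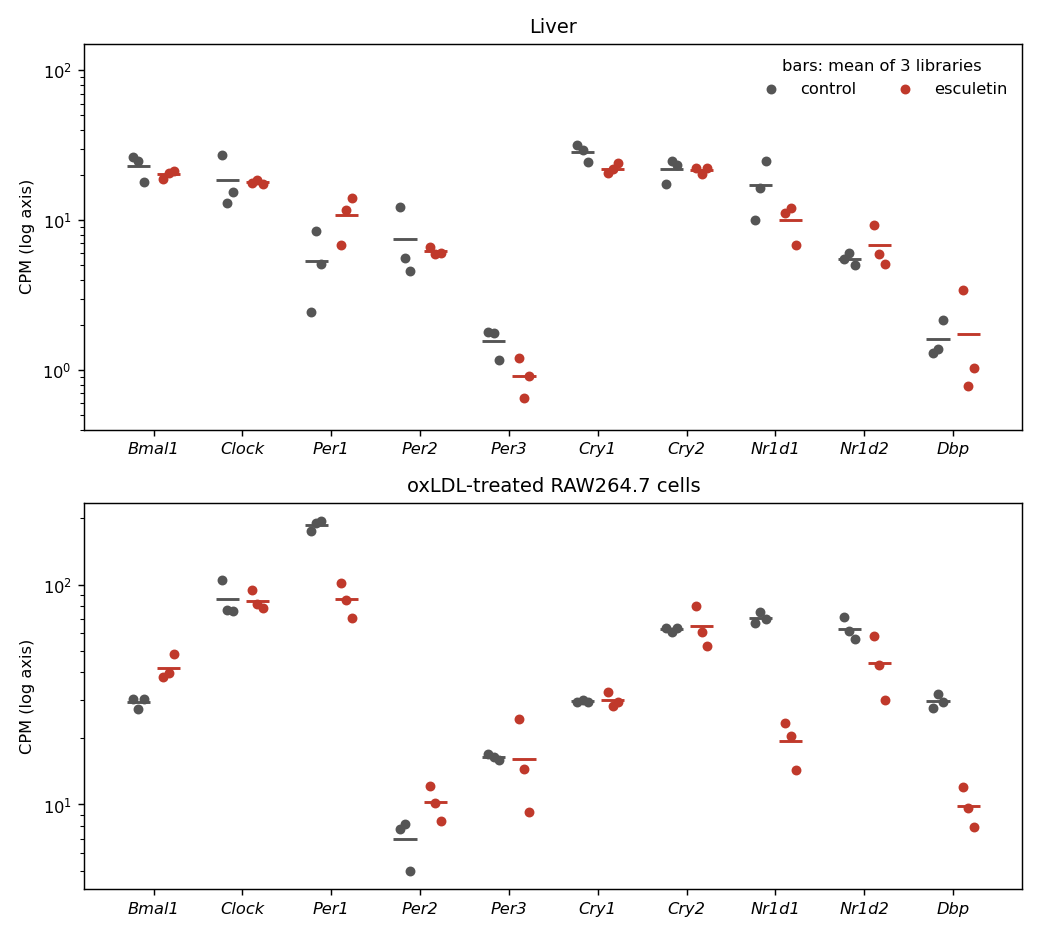
CPM of the 10 clock genes in each liver library (upper panel) and each RAW264.7 library (lower panel) on log axes, with control in grey, esculetin in red and bars at the mean of 3 libraries. In the cells the 2 groups stand apart for Bmal1, Per1, Per2, Nr1d1 and Dbp, while in the liver they stand apart for Cry1 alone.

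In oxLDL-treated RAW264.7 cells, esculetin was accompanied by lower Nr1d1, Dbp, Per1 and Nr1d2 and by higher Bmal1 and Per2. These 6 of 10 members passed an adjusted p of 0.05 in edgeR's quasi-likelihood test, where 57.7% of all 13277 tested genes did, so the number of calls was close to the background. Of the members, 2 were called higher against 28.7% of all genes, and 4 were called lower against 29.0%. The groups did not overlap for 5 members, against 64.1% of all genes. The median size of the change was 0.53 on the log2 scale for the members and 0.48 for all tested genes. Every called member was lower in each esculetin library than in each control library, or higher in each, except Nr1d2.

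The REV-ERB repressors both fell. Nr1d1 (ENSMUSG00000020889, chr11:98658752-98666188, minus strand) encodes the haem-binding receptor that represses Bmal1. Its level was 67.1, 75.2 and 69.5 CPM in the control cells and 23.4, 20.5 and 14.3 CPM with esculetin. All esculetin libraries lay far below all controls, and esculetin replicate 3 was the lowest. The mean went from 70.6 ± 4.18 to 19.4 ± 4.67 CPM (SD, n = 3 each), a 3.66-fold lower level with a log2 fold change of -1.87 (SE 0.15, adjusted p = 2.44e-06). Exons of Thra, which encodes thyroid hormone receptor alpha on the opposite strand, cover 1694 of the 3242 exon bases of Nr1d1 (52.3%), and without a stated strand setting reads from there cannot be told apart. Thra was itself lower in these cells, with a log2 fold change of -1.08 (SE 0.11, adjusted p = 1.46e-05), and the part of the overlap in either result was not tested.

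Nr1d2 (ENSMUSG00000021775, chr14:4230545-4266624, plus strand), the paralogous repressor, stood at 71.6, 61.4 and 56.3 CPM in control and 58.3, 43.2 and 30.0 CPM in esculetin cells. Here the groups overlapped, since esculetin replicate 1 was above control replicate 3. The log2 fold change was -0.53 (SE 0.19, adjusted p = 0.0329). This call was lost without control replicate 1 or 2 or without esculetin replicate 2 or 3. With any 1 library left out the log2 fold change ran from -0.79 to -0.32, and over all alternatives the adjusted p reached 0.151.

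Dbp (ENSMUSG00000059824, chr7:45354512-45359627, plus strand), the E-box-driven output factor, fell with Nr1d1. Control cells held 27.4, 31.8 and 29.2 CPM and esculetin cells 12.0, 9.68 and 7.86 CPM. The lowest control was above the highest esculetin library by more than the range within either group. The level was 3.01-fold lower, with a log2 fold change of -1.59 (SE 0.15, adjusted p = 7.39e-06). Exons of Sphk2, a sphingosine kinase gene on the opposite strand, share 539 of its 3470 exon bases (15.5%), and Sphk2 was higher in the same cells, with a log2 fold change of 0.52 (SE 0.13, adjusted p = 0.00553).

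The Period genes, which encode partners of the CRY repressors, did not move together. Per1 (ENSMUSG00000020893, chr11:68986035-69002300, plus strand), which also responds quickly to hormones and growth factors, had 176, 191 and 195 CPM in control and 102, 85.0 and 70.8 CPM in esculetin cells. No esculetin library reached the lowest control. Its mean went from 187 ± 10.1 to 86.0 ± 15.7 CPM (SD, n = 3 each), 2.18-fold lower, with a log2 fold change of -1.13 (SE 0.12, adjusted p = 1.58e-05).

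Per2 (ENSMUSG00000055866, chr1:91343700-91387069, minus strand) was the least abundant member per kilobase in the control cells. It held 7.72, 8.12 and 4.96 CPM in control and 12.2, 10.2 and 8.42 CPM in esculetin cells, from 102 to 166 reads per library. Esculetin replicate 3 was only just above control replicate 2, and control replicate 3 was the lowest. The log2 fold change was 0.56 (SE 0.21, adjusted p = 0.0397). Scaling by library size alone removed the call (adjusted p = 0.0701), leaving 1 member called higher and 4 lower. The call was also lost without control replicate 1 or 3 or esculetin replicate 1 or 2, with log2 fold changes from 0.38 to 0.70 over the replicates left out and adjusted p-values from 0.00770 to 0.160 over all alternatives.

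Per3 (ENSMUSG00000028957, chr4:151081373-151129140, minus strand), the Period gene whose loss alters mouse rhythms least, had a wide spread with esculetin around a mean close to that of the controls. Control cells held 16.9, 16.4 and 15.9 CPM, and esculetin cells 24.5, 14.5 and 9.20 CPM. Esculetin replicate 1 was above all controls and the other esculetin libraries were below them. The log2 fold change was -0.04 (SE 0.26, adjusted p = 0.901), and it was -0.48 without esculetin replicate 1 (adjusted p = 0.0320, the lowest of its alternatives, which reached 0.967).

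The activator Bmal1 (ENSMUSG00000055116, chr7:112806152-112914735, plus strand), the partner of CLOCK, was higher with esculetin. Its levels were 30.2, 27.2 and 30.3 CPM in control and 37.9, 39.6 and 48.3 CPM in esculetin cells. The groups did not overlap, and esculetin replicate 3 was the highest library. The log2 fold change was 0.52 (SE 0.12, adjusted p = 0.00267), a 1.44-fold higher level.

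Clock, Cry1 and Cry2 gave no call in the cells. Clock (ENSMUSG00000029238, chr5:76342860-76452846, minus strand), the partner of BMAL1, had 105, 76.3 and 76.0 CPM in control and 94.1, 81.7 and 78.0 CPM in esculetin cells, with control replicate 1 highest. The fitted log2 fold change was -0.02 (SE 0.13). Tmem165, a gene on the opposite strand, shares 2047 of the 17251 exon bases of Clock (11.9%) and had a log2 fold change of 0.24 (SE 0.10, adjusted p = 0.0670). Cry1 (ENSMUSG00000020038, chr10:84967560-85021252, minus strand), which encodes the stronger of the CRY repressors, held 29.4, 30.0 and 29.3 CPM in control and 32.4, 28.1 and 29.2 CPM in esculetin cells. These libraries lay within a 1.15-fold range, narrower than for all but 1.95% of tested genes, and the log2 fold change was 0.01 (SE 0.10). Cry2 (ENSMUSG00000068742, chr2:92233894-92264474, minus strand), the other CRY repressor, had 63.6, 60.9 and 63.8 CPM in control and 79.9, 61.1 and 52.5 CPM in esculetin cells, so that the esculetin group spanned the controls. Cry2 had a log2 fold change of 0.04 (SE 0.13), and the sign of both Cry values turned when libraries were scaled by size alone.

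**Figure D2:**
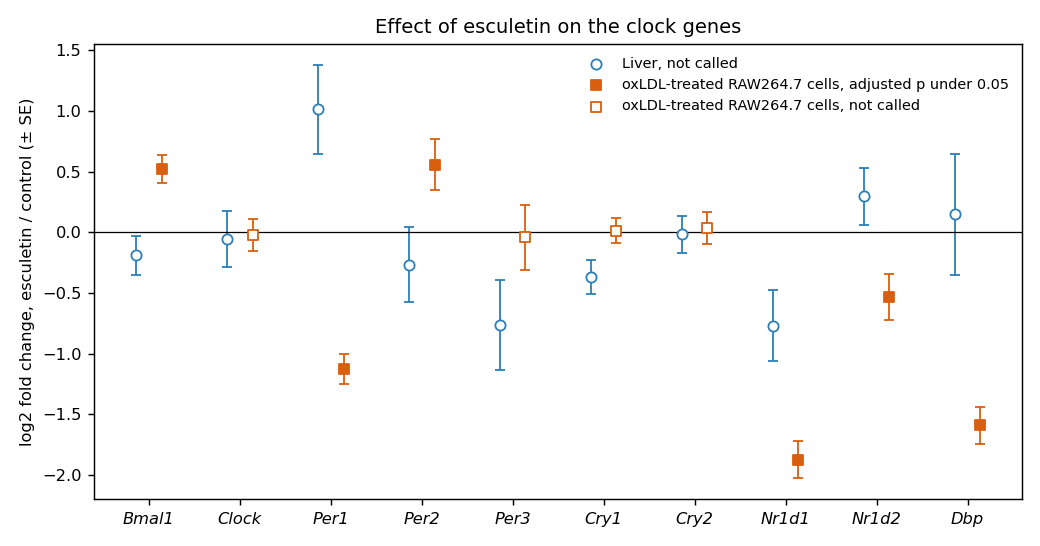
Log2 fold change of esculetin over control with its standard error for each clock gene, in the liver (blue circles) and in RAW264.7 cells (orange squares), filled where the adjusted p was under 0.05. All filled symbols are from the cells, and for Per1 the symbols lie at 1.02 in the liver and -1.13 in the cells.

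In the liver none of the 10 members was called by edgeR, where 0.0859% of all 12813 tested genes were. DESeq2 and limma-voom called 0 members as well. At an unadjusted p under 0.05 there were 3 members, Per1, Cry1 and Nr1d1, against 8.37% of all genes. The groups did not overlap for 1 member, Cry1, against 14.5% of all genes. Of the members, 3 had a higher mean with esculetin and 7 a lower one. The median size of the log2 fold change was 0.28 for the members and 0.16 for all tested genes.

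Per1 had the largest liver value among the members. It held 2.46, 8.44 and 5.07 CPM in control livers and 6.81, 11.8 and 14.2 CPM in esculetin livers, from 40 to 219 reads per library. Control replicate 1 was the lowest of the 6 livers, esculetin replicates 2 and 3 were the highest, and the groups overlapped. The log2 fold change was 1.02 (SE 0.37, adjusted p = 0.488), and it lay between 0.68 (without control replicate 1) and 1.53 (without control replicate 2) with any 1 library left out. Without a count filter Per1 was called (adjusted p = 0.000371, with values up to 0.994 over the alternatives).

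Nr1d1 in the liver had 10.0, 16.4 and 24.8 CPM in control and 11.2, 12.0 and 6.79 CPM with esculetin. Control replicate 1 fell within the esculetin group, while the other controls were above it. On the log2 scale the fold change was -0.77 (SE 0.29, adjusted p = 0.513). It was -0.42 without control replicate 3 and -1.03 without control replicate 1, and without a count filter Nr1d1 was called (adjusted p = 0.00304, with values up to 0.994 over the alternatives). Thra, which shares its exon bases, had a log2 fold change of 0.01 (SE 0.16) in these livers.

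Cry1 held 31.6, 29.4 and 24.7 CPM in control and 20.5, 21.8 and 23.9 CPM in esculetin livers. Every esculetin liver was below every control, with a gap between esculetin replicate 3 and control replicate 3 that was smaller than the range within either group. This gave a log2 fold change of -0.37 (SE 0.14, adjusted p = 0.510).

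Dbp was scarce in the liver, with 12 to 63 reads per library. Control livers had 1.29, 1.38 and 2.16 CPM, and esculetin livers 3.43, 0.779 and 1.04 CPM. Esculetin replicate 1 was the highest of all livers and the other esculetin livers were the lowest. A log2 fold change of 0.15 (SE 0.50, adjusted p = 0.955) became -0.83 without esculetin replicate 1 (adjusted p = 0.854, with 0.761 to 0.996 over all alternatives).

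Per3 was the scarcest member, with 10 to 36 reads per liver library. It had 1.78, 1.78 and 1.17 CPM in control and 1.20, 0.649 and 0.906 CPM in esculetin livers, and esculetin replicate 1 lay just above control replicate 3. The fitted log2 fold change was -0.76 (SE 0.37, adjusted p = 0.627). Nr1d2 held 5.53, 6.07 and 5.01 CPM in control and 9.26, 5.97 and 5.11 CPM in esculetin livers, where only esculetin replicate 1 exceeded all controls. Here the log2 fold change was 0.30 (SE 0.24), and it was -0.01 without that library.

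Per2 and Clock were both highest in liver control replicate 1. Per2 had 12.2, 5.63 and 4.60 CPM in control and 6.59, 5.97 and 6.02 CPM in esculetin livers. Clock had 27.4, 12.98 and 15.4 CPM in control and 17.7, 18.5 and 17.4 CPM in esculetin livers. In both, the esculetin livers lay close together between the controls. The log2 fold changes were -0.26 (SE 0.31) for Per2 and -0.06 (SE 0.23) for Clock, and without control replicate 1 they were 0.28 and 0.34.

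Bmal1 in the liver had 26.3, 24.9 and 18.1 CPM in control and 18.9, 20.5 and 21.4 CPM with esculetin. Control replicate 3 was the lowest library of all and the esculetin livers lay between the controls. Bmal1 had a log2 fold change of -0.19 (SE 0.16, adjusted p = 0.772), and that of Cry2, whose livers lay within a 1.42-fold range, was -0.02 (SE 0.15). The value of Bmal1 was -0.08 without control replicate 1, -0.13 without control replicate 2 and -0.36 without control replicate 3.

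Whether the effect of esculetin differed between the cells and the liver was tested as the difference of both log2 fold changes in 1 fit of all 12 libraries. The dose, route and duration differed between the tables, as did the diet or oxLDL that both groups of a table shared. Of the members, 4 of 10 were called in edgeR's test of this difference, where 27.1% of 15709 genes were. For Per1 the effect in cells minus that in liver was -2.17 on the log2 scale (SE 0.41, adjusted p = 0.000938), with each of 15 alternatives keeping the call. For Dbp the difference was -1.79 (SE 0.52, adjusted p = 0.0180), and without liver esculetin replicate 1 it was -0.74 (adjusted p = 0.220, the highest of its alternatives). For Bmal1 it was 0.67 (SE 0.20, adjusted p = 0.0212), and the call was lost in 2 of 15 alternatives, without cells control replicate 2 or cells esculetin replicate 3 (adjusted p up to 0.0635). For Nr1d1 it was -1.14 (SE 0.38, adjusted p = 0.0330), and the call was lost in 8 of 15, without liver control replicate 1 or 2, liver esculetin replicate 1 or 2, cells control replicate 2 or 3, or cells esculetin replicate 2 or 3 (adjusted p up to 0.107). Thra, which shares exon bases with Nr1d1, had a difference of -1.13 (SE 0.21, adjusted p = 0.000848). The difference was not called for Nr1d2 at -0.87 (SE 0.33, adjusted p = 0.0648), which was called without liver esculetin replicate 3 or cells esculetin replicate 1, or for Per2 at 0.79 (SE 0.43, adjusted p = 0.190), nor for Clock, Per3, Cry1 and Cry2, while without liver control replicate 3 Per2 and Cry1 were called. Of the wider clock network described next, 3 of 21 genes were called for this difference: Usp2 at -3.09 (SE 0.33) and, named after their values were seen, Timeless at -0.78 (SE 0.27) and Btrc at -0.60 (SE 0.18).

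Other genes of the clock network were taken from a list of 22 that holds activators, PAR bZIP factors, further repressors, kinases, ubiquitin ligases and outputs. Of these, 15 could be tested in the cells and 11 were called, 5 higher and 6 lower, where 57.7% of all genes were called. The groups did not overlap for 11 of them, against 64.1% of all genes. The median size of the log2 fold change was 0.70 in the list and 0.48 over all tested genes. Npas2, a relative of Clock, was below the count filter in the cells.

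The 3 called genes of smallest p in the cells were Noct, Usp2 and Wee1. Usp2, an E-box-driven ubiquitin protease, had 45.6, 46.2 and 49.8 CPM in control and 9.29, 7.09 and 5.08 CPM in esculetin cells, so every esculetin library was far below the controls. Usp2 thus had a log2 fold change of -2.74 (SE 0.18, adjusted p = 5.25e-07). Wee1, a kinase that holds back mitosis and a known E-box target, had 37.8, 36.3 and 36.2 CPM in control and 12.4, 11.6 and 11.5 CPM in esculetin cells. Both groups were tight, and the log2 fold change was -1.64 (SE 0.11, adjusted p = 5.52e-07). Noct, a rhythmic phosphatase also known as nocturnin, went the other way, from 19.9, 18.6 and 20.2 CPM to 59.7, 57.7 and 66.0 CPM. Each esculetin library was above all controls, with a log2 fold change of 1.64 (SE 0.10, adjusted p = 3.69e-07).

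Among the repressors and kinases, Bhlhe41 (DEC2), which competes with BMAL1-CLOCK at E-boxes, was higher with a log2 fold change of 0.78 (SE 0.09, adjusted p = 2.00e-05). Csnk1e, a kinase that marks PER proteins for degradation, was lower with a log2 fold change of -0.93 (SE 0.10, adjusted p = 1.18e-05). The remaining genes called higher, named after their values were seen, were the repressors Bhlhe40 at 0.70 (SE 0.08) and Ciart at 0.78 (SE 0.12) and the NAD-producing enzyme Nampt at 0.27 (SE 0.10). The remaining genes called lower, named in the same way, were the repressor Nfil3 at -0.34 (SE 0.11), Timeless at -0.85 (SE 0.11) and the ubiquitin ligase gene Btrc at -0.51 (SE 0.10).

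**Figure D3:**
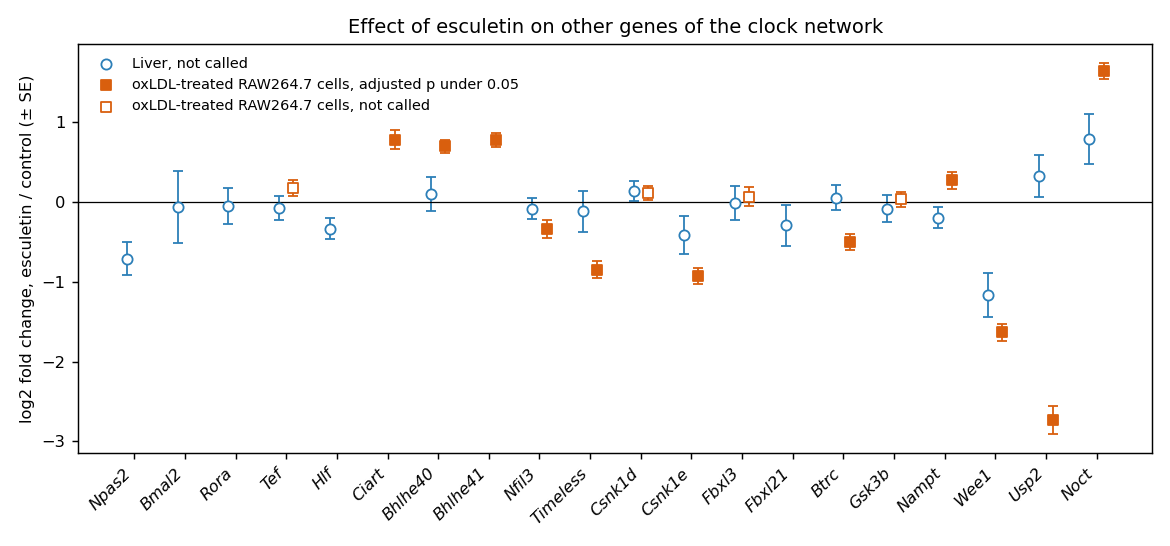
Log2 fold change of esculetin over control with its standard error for 20 genes of the wider clock network, in the liver (blue circles) and in RAW264.7 cells (orange squares), filled where the adjusted p was under 0.05. The filled symbols are all from the cells and run from -2.74 for Usp2 to 1.64 for Noct, and genes without a symbol in a table were below its count filter.

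In the liver 19 of the 22 network genes could be tested and edgeR, DESeq2 and limma-voom called 0, with 4 at an unadjusted p under 0.05 in edgeR (8.37% of all genes) and 5 without overlap between groups (14.5% of all genes). Wee1 had the smallest p, with 4.42, 3.90 and 3.50 CPM in control and 2.23, 1.30 and 1.68 CPM in esculetin livers. All esculetin livers were below all controls, and the log2 fold change was -1.17 (SE 0.28, adjusted p = 0.213). Npas2 had 14.8, 9.42 and 8.97 CPM in control and 6.81, 6.82 and 6.60 CPM in esculetin livers, again without overlap, with a log2 fold change of -0.71 (SE 0.21, adjusted p = 0.334). Noct had 11.0, 8.73 and 11.8 CPM in control and 8.34, 23.1 and 23.2 CPM in esculetin livers, where replicates 2 and 3 were high and replicate 1 was the lowest. Noct had a log2 fold change of 0.79 (SE 0.31, adjusted p = 0.520).

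Genes known to be induced by glucocorticoids, hormones that set the liver clock and act on Per1, were read beside it. Of 8 listed genes tested in the liver, edgeR and limma-voom called 0 and DESeq2 called 1 (Cdkn1a). Over all genes DESeq2 called 98 of 12813. Of the list, 3 had an unadjusted p under 0.05 in edgeR, where 8.37% of all genes did. Without a count filter edgeR called these 3, Cdkn1a, Lcn2 and Tsc22d3, where it called 339 of 22343 genes. So did limma-voom under the study's criterion of an unadjusted p under 0.05 and a fold over 1.5, where 499 of 12813 genes were called. Tsc22d3 (GILZ), a glucocorticoid-induced anti-inflammatory gene, had 105, 150 and 184 CPM in control and 155, 256 and 320 CPM in esculetin livers. As for Per1, control replicate 1 was the lowest and esculetin replicates 2 and 3 the highest. The log2 fold change of Tsc22d3 was 0.73 (SE 0.25, adjusted p = 0.449) and that of the cell cycle inhibitor Cdkn1a was 0.91 (SE 0.27, adjusted p = 0.334). That of Lcn2, which encodes lipocalin 2, was 0.87 (SE 0.33, adjusted p = 0.513), and Lcn2 was highest in esculetin replicate 1, unlike Per1. By log2 fold change, 7 of the 8 genes were higher and 1 lower. Named after their values were seen, Fkbp5 and Zbtb16 were both at 0.05 (SE 0.16 and 0.35). The lower gene, named in the same way, was Dusp1 at -0.26 (SE 0.19), with control replicate 1 the highest liver at 56.8 CPM. In the cells 5 of 5 tested genes of the list were called, 3 higher and 2 lower, where 57.7% of all genes were. The count was 2 without control replicate 2 (6608 of 13793 genes called) and under the study's criterion (5041 of 13277). It was 3 without control replicate 1 or 3, without esculetin replicate 2 or 3, with library size only or without a filter. With DESeq2, with replicate number as a block or without esculetin replicate 1 it was 4. Tsc22d3 and Dusp1 were called in each of these, and Fkbp5 in all except those with a count of 2. With all cell libraries in edgeR, Tsc22d3 was lower, like Per1, with a log2 fold change of -1.53 (SE 0.16, adjusted p = 1.32e-05), and so was Fkbp5, a chaperone of the receptor, at -0.31 (SE 0.09, adjusted p = 0.0143). Dusp1, a phosphatase of MAP kinases, was higher at 1.55 (SE 0.13, adjusted p = 3.16e-06). The part of hormones in any of these values was not tested.

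Liver genes downstream of the PAR bZIP factors Dbp, Tef and Hlf gave no call in edgeR among 9 tested and 0 in DESeq2 and limma-voom, with 2 at an unadjusted p under 0.05 in edgeR (8.37% of all genes) and 4 without overlap between groups (14.5% of all genes). Without a count filter 1 was called, where 339 of all 22343 genes were. Under the study's criterion 1 was called, where 499 of 12813 genes were. Alas1, the rate-limiting enzyme of haem synthesis, had 149, 78.0 and 111 CPM in control and 300, 164 and 158 CPM in esculetin livers. Every esculetin liver was above every control, and esculetin replicate 1, the library with the highest Dbp, was the highest. The other livers did not follow Dbp. Esculetin replicates 2 and 3 had the lowest Dbp of all livers, and control replicate 1 had the lowest Dbp but the highest Alas1 of the controls. The log2 fold change of Alas1 was 0.88 (SE 0.26, adjusted p = 0.334), and that of Cyp2c50, a cytochrome P450, was 0.36 (SE 0.14, adjusted p = 0.510). By log2 fold change, 6 of the 9 genes were higher and 3 lower. Among the lower ones Nr1i3, named after its values were seen, was at -0.15 (SE 0.13) without overlap between groups. In the cells 2 genes of the list could be tested and both were called higher, where 28.7% of all genes were. Por, the electron donor of P450 enzymes, rose by a log2 fold change of 1.49 (SE 0.16, adjusted p = 1.62e-05) and Alas1 by 0.48 (SE 0.13, adjusted p = 0.00708).

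The spread between replicate livers was wide for several members. The standard deviation (SD) of log2 CPM within groups was 0.79 for Dbp, 0.73 for Per1, 0.56 for Nr1d1 and 0.52 for Per2. Among all tested genes these values lay at percentiles 98.0, 97.1, 92.3 and 90.6. The percentiles rank genes of every level together, and genes of like level were not compared. For Clock, Per3 and Nr1d2 the percentiles were 81.0, 76.6 and 71.5, and for Bmal1, Cry2 and Cry1 they were 48.2, 40.9 and 25.7. The values of Per2 and Clock leaned on liver control replicate 1, which stood apart at 12.2 and 27.4 CPM. Within the esculetin livers the SD was only 0.35 CPM for Per2 and 0.58 CPM for Clock. The median SD was 0.38 for the 10 members and 0.22 for all genes, and 7 of 10 members were above that median. Counting alone gives an SD of about 0.31 for Dbp and 0.34 for Per3 at their depth, but 0.14 for Per1 and 0.10 for Nr1d1. Over the 6 livers of both groups, the range of log2 CPM was equal to 5.55-fold for Per1, 3.96-fold for Dbp and 3.60-fold for Nr1d1. The prior count of 2 in log2 CPM makes such values smaller than the ratio of the CPM themselves where counts are low. The hour of sampling has no label, and its part in this spread was not tested.

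In the cells the median SD of the members was 0.22, against 0.17 over all tested genes, and 8 of 10 members were above that median. The widest were Per3 at 0.50 and Nr1d2 at 0.36, where esculetin replicate 1 was high and replicate 3 low.

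**Figure D4:**
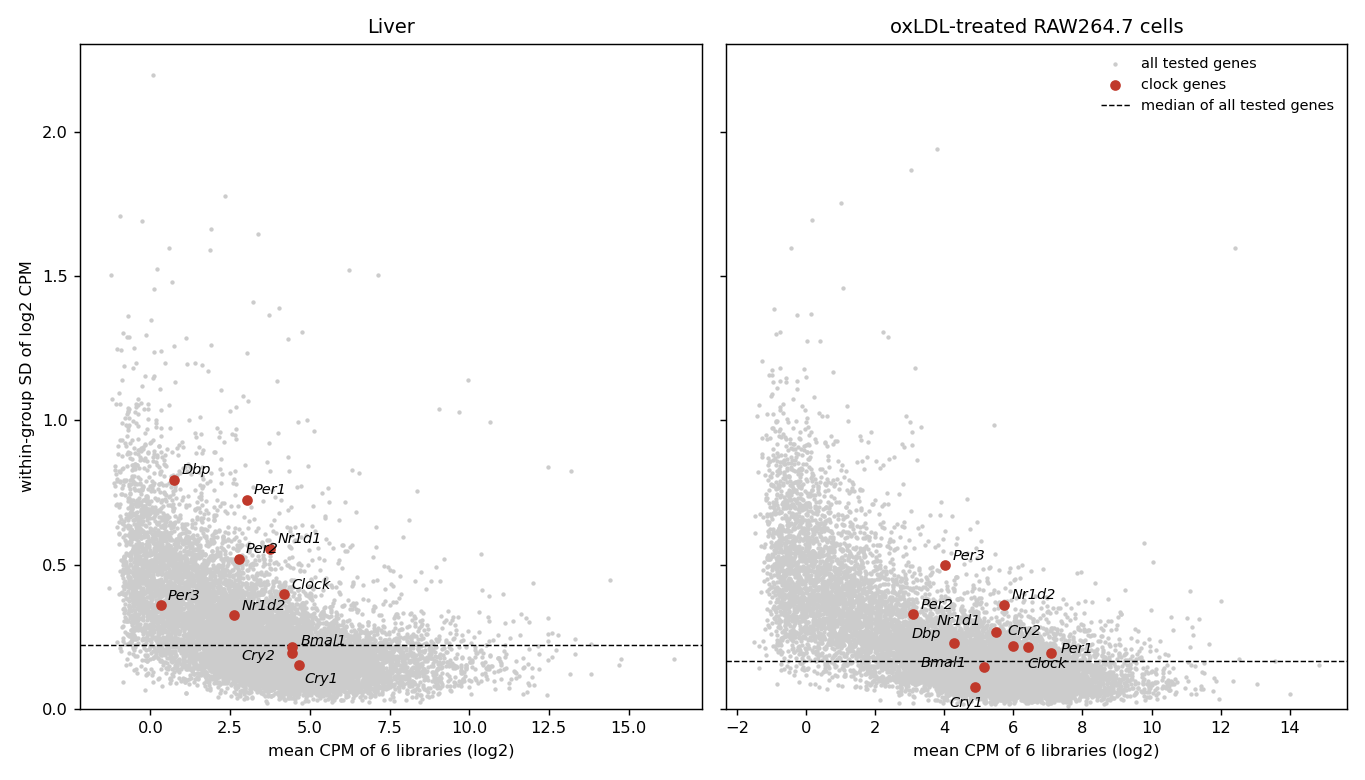
SD of log2 CPM within groups against the log2 of the mean CPM for all tested genes (grey), with the clock genes in red and the median of all genes dashed, for the liver (left) and RAW264.7 cells (right). In the liver Dbp, Per1, Nr1d1 and Per2 lie at 0.52 to 0.79, above most genes, while Bmal1, Cry1 and Cry2 lie below the dashed line.

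To describe whether members that peak together or apart in a running liver clock moved so between these livers, 4 pairs of members were correlated over the 6 libraries, with exact permutation of 720 pairings and adjustment over 4 pairs. For Bmal1 and Dbp, Pearson's r was -0.462 (exact permutation p = 0.350, adjusted 0.553) and Spearman's rho -0.429 (exact permutation p = 0.419, adjusted 0.559). For Bmal1 and Nr1d1, r was -0.320 (exact permutation p = 0.553, adjusted 0.553) and rho -0.486 (exact permutation p = 0.356, adjusted 0.559). For Dbp and Per3, r was 0.363 (exact permutation p = 0.483, adjusted 0.553) and rho 0.486 (exact permutation p = 0.356, adjusted 0.559). For Per1 and Per2, r was -0.640 (exact permutation p = 0.189, adjusted 0.553) and rho -0.200 (exact permutation p = 0.714, adjusted 0.714).

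None of the 4 pairs passed. Without the 2 livers farthest from the median of the first gene of a pair, r was -0.782, -0.871, 0.0843 and 0.556 in the same order, so the sign of the Per1 and Per2 relation rested on those libraries. Of deviations from the group means, r was -0.563, -0.828, 0.456 and -0.739.

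The tested liver genes with a mean of at least 5 CPM whose log2 CPM followed Dbp most closely over the 6 libraries were Gm16089 (r = 0.965), Mocs2 (0.963), Jmjd6 (0.958), Harbi1 (0.949) and Trim26 (0.944), out of 8616. Those closest to Bmal1 were Zfp746 (0.991), Ino80 (0.990), Zfp384 (0.986), Sox6 (0.986) and Ncoa4 (0.983), out of 8615. No clock gene was among them. The ranking took the highest r only, so a gene that ran opposite could not enter, and the 5 CPM minimum left out scarce genes such as Per3. These were picked as the highest values over 6 points, so they are a description.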

How the data were processed

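The authors deposited raw counts per gene locus, whole numbers, in 1 table for the liver and 1 for RAW264.7 cells. Per the study's methods and the submitters' processing notes, libraries made with a NEBNext Ultra RNA kit were sequenced as 150-bp paired ends, aligned to GRCm39 with HISAT2 2.2.1 and counted with featureCounts. The strand setting, the annotation release and the handling of multi-mapping reads were not given in the sources used here, so reads of overlapping or near-identical genes may be split or lost. Symbols and coordinates came from GENCODE on GRCm39, in which 54749 of 55357 identifiers matched, and the unmatched rows held at most 0.0330% of a library's counts.

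Samples were grouped by the labels, with 3 libraries in each of 4 groups. The 2 tables were analysed separately, using glmQLFit and glmQLFTest of edgeR 4.0.16 under R 4.3.3, after filterByExpr and TMM normalisation. Tests were two-sided, p-values were adjusted by Benjamini-Hochberg over all tested genes, and an adjusted p under 0.05 was a call. The effects of both tables were compared in 1 fit of 4 group means over 12 libraries. CPM used TMM-scaled library sizes, and log2 CPM a prior count of 2. Values per kilobase used the union of exons, Python 3.11.15 and scipy 1.17.1 served the correlations, and total counts of 13752842 to 20346460 set the precision.

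All 10 members were named. Genes named beyond the rules given next are marked as named after their values were seen. Of the wider network, the called genes of smallest p (up to 5 in a table, or 3 of smallest p where none was called) were named, and of the glucocorticoid and PAR bZIP lists up to 3 per table, with 5 genes most like Dbp and 5 most like Bmal1 and those genes whose exons overlap a member. Of the latter, values are given for Thra, Sphk2 and Tmem165, since each other gene shared at most 4.36% of a member's exon bases. A gene of the network list is counted but not reported here. The members and lists were chosen with earlier results of these data known. The alternatives tried were other size factors, other count filters, DESeq2 1.42.0, limma-voom (limma 3.58.1) with and without the study's criterion (unadjusted p under 0.05, fold over 1.5), a replicate block, each library left out, a prior count of 0.5 and the longest transcript as length. The scripts were tested on simulated counts. No 2 replicates agreed within sampling noise, at a chi-square of at least 3.04 per gene.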

Additional observations from a re-analysis of the deposited data

Results flagged for a closer look

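The effect of esculetin in the cells differed from that in the liver for 4 of 10 members and 3 of 21 network genes. By this test of the difference, 27.1% of all 15709 genes were called. Of the 3 network genes only Usp2, among the 5 of smallest p in the cells, is given here. The effect in cells minus that in liver was -2.17 for Per1 (edgeR adjusted p = 0.000938), -1.79 for Dbp (adjusted p = 0.0180), -1.14 for Nr1d1 (adjusted p = 0.0330) and 0.67 for Bmal1 (adjusted p = 0.0212) on the log2 scale. For Usp2 the difference was -3.09 (adjusted p = 8.11e-06), with log2 fold changes of -2.74 in the cells and 0.32 in the liver. Cell type, dose, route and duration differed together between the tables and cannot be told apart. The value for Dbp leaned on liver esculetin replicate 1, without which it was -0.74 (adjusted p = 0.220). The call for Nr1d1 was lost in 8 of 15 alternatives (adjusted p up to 0.107) and that for Bmal1 in 2 of 15 (adjusted p up to 0.0635). Thra, which shares exon bases with Nr1d1, had a difference of -1.13.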

How the results depend on the processing

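The call counts of the members in the cells stayed between 4 and 6 under all alternatives. Over all genes, 7667 of 13277 were called in the main fit. Where 4 members were called, the genes called were 5041 of 13277 (study's criterion), 7246 of 13696 (without control replicate 1) and 6607 of 13678 (without esculetin replicate 2). Nr1d1, Dbp, Per1 and Bmal1 were called in every edgeR, DESeq2 and limma-voom fit at an adjusted p under 0.05. Under the study's criterion of fold over 1.5, Bmal1 and Per2 were not. In the liver, 2 members were called without a count filter and 2 under the study's criterion (Nr1d1 and Per1 in both), and 3 and 2 network genes, against 0 of each, where 339 of 22343 and 499 of 12813 genes were called. With the replicate block, 1 liver member was called (Per1, log2 fold change 1.11, adjusted p = 0.0147), with Cdkn1a and Tsc22d3 of the glucocorticoid list and 1 PAR bZIP target, among 123 genes in all. Whether same-numbered libraries belong together was not given in the sources used here. Deviations of same-numbered libraries correlated at 0.140, -0.00529 and 0.103 in the liver and 0.165, -0.0298 and 0.0796 in the cells. Pairs of unlike number spanned -0.151 to 0.0885 for livers, and for cells -0.170 to 0.108. These values cannot decide the question, because deviations of 3 libraries from their own group mean are not independent. For the difference between the tables, the replicate block called 5 members against 4 (Nr1d2 added), and 6 network genes against 3, where DESeq2 called 5. Of all 15709 genes, the replicate block called 4512 and DESeq2 4803, against 4253 in the main fit. With 1 library left out, 2 to 6 members and 1 to 4 network genes were called for that difference, with 2 members without liver esculetin replicate 1, cells control replicate 2 or cells esculetin replicate 3. Over all genes, these fits called from 3368 of 16214 to 4730 of 16341.

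Signs turned for these members, none of them called with all libraries by edgeR in the table concerned. In the liver, Clock was 0.0339 with limma-voom and 0.0085 with the replicate block and ran from -0.26 to 0.34 with 1 library left out, and Dbp was -0.0849, -0.0631 and -0.83 to 0.48. With 1 library left out, Per2 ran from -0.54 to 0.28, Cry2 from -0.146 to 0.0875 and Nr1d2 from -0.0120 to 0.45. In the cells, Cry1 was -0.0514 with library size only, -0.0300 without a filter and -0.0462 to 0.0542 with 1 library left out, and Cry2 was -0.0254, -0.00758 and -0.146 to 0.164. Clock ran from -0.105 to 0.148 and Per3 from -0.48 to 0.24. The cause was not tested. Correlations under other size factors, added after seeing the data, kept their signs and none passed. By longest transcript, 7 ranks of level moved, and Per1 went from rank 7 to 9 in the liver. Low counts of Dbp and Per3 limit what the liver can show.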
